A study of Mus musculus with 18 samples.

Results

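Cyclins of the D type and the proteins that restrain them were followed through osteoclast formation, by taking every array probe annotated to Ccnd1, Ccnd2, Ccnd3, Cdk4, Cdk6, Cdkn1a, Cdkn1b, Cdkn2c and Rb1. Of these 9 genes 8 had a probe, with 18 probes in all among the 25697 of the array, and Cdk4 was not analysed here. A probe was tested where its signal exceeded the negative control beads (detection p under 0.05) on at least 3 of the 18 arrays, which 15 member probes from 8 genes did. The probes of a gene are numbered here from the highest to the lowest mean level. The 3 untested probes, probe 3 of Ccnd3 and probes 2 and 3 of Cdkn1b, were above background on 1, 1 and 0 of 18 arrays.

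D cyclins bind the kinases CDK4 and CDK6 and are made when a mitogen such as M-CSF, the growth and survival factor of macrophages, acts on a resting cell. The active kinase phosphorylates the retinoblastoma protein, which then releases E2F factors and with them the genes of DNA synthesis. Inhibitors of the INK4 family, of which p18 is encoded by Cdkn2c, block CDK4 and CDK6 alone, while p21 (Cdkn1a) and p27 (Cdkn1b) act on cyclin and kinase complexes more widely. Osteoclasts form when macrophage precursors stop dividing under RANKL, the cytokine that drives their differentiation, and fuse.

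The cells came from C57BL/6 mice of 2 to 3 months, either ERα f/f controls, whose estrogen receptor gene is floxed but intact, or ERα ΔLysM littermates, in which Cre under the lysozyme M locus removes it from myeloid cells. Bone marrow cells were first kept for a day at a lower dose of M-CSF. The non-adherent cells, replated for 4 days in 30 ng/ml M-CSF, gave bone marrow-derived macrophages (BMMs). A further 2 or 4 days in 30 ng/ml M-CSF together with 30 ng/ml RANKL gave pre-osteoclasts and mature osteoclasts. No group had M-CSF alone for these further days, so RANKL and time in culture cannot be told apart. The study's text adds a treatment with 10 nM estradiol for 4 h, which the labels do not mention and which all groups would share. Each of the 6 groups had 3 arrays, and neither text nor labels state whether these are separate mice, so a p value measures the spread between these samples.

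Median scanner signals ran from 116 to 191 and the probes detected per array from 10770 to 12031. Signals below 150 marked 7 dim arrays, 6 of them ERα ΔLysM. Both Esr1 probes, which read the deleted gene, were below detection on all 18 arrays, with a lowest detection value of 0.18. The deletion could therefore not be checked on these arrays, while the study measured ERα mRNA of BMMs by RT-PCR. Osteoclast markers rose from BMMs to pre-osteoclasts for 9 and to mature osteoclasts for 10 of 10 tested, where 30.8% and 35% of all tested genes rose. However, Atp6v0d2 was below detection on every array. Itgb3 was so on every pre-osteoclast, ERα f/f osteoclast and ERα ΔLysM BMM array. Macrophage markers fell for 5 of 5 from BMMs to either later stage, where 27% and 34.3% of all tested genes fell. Markers of neutrophils fell too, for 8 of 8 at each step, where 27% and 30.1% of all tested genes fell. The part of these cells in the results below was not tested.

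Most of the tested member probes were lower in pre-osteoclasts than in BMMs. From BMMs to pre-osteoclasts 12 of the 15 tested probes fell, 1 rose and 2 did not pass the test. The 12 falls came from 6 of the 8 tested genes, so they are not 12 separate results. Of the inhibitors, Cdkn1a fell on all 3 probes, Cdkn2c fell on probe 1 and rose on probe 2, and Cdkn1b did not pass. Among all 13409 tested probes 25.9% fell and 30.1% rose, so that 56.0% changed. The test was limma's moderated test on log2 levels with Benjamini-Hochberg adjustment over all tested probes and a threshold of 0.05. The arrays of these stages did not overlap for 13 of the 15 probes, against 36.2% of all. From BMMs to mature osteoclasts 12 member probes (6 genes) fell, 2 (2 genes) rose and 13 did not overlap. Of all probes 33.4% fell, 34.8% rose, 68.2% changed and 49.7% did not overlap. Between pre-osteoclasts and osteoclasts 6 member probes (3 genes) fell, 2 (1 gene) rose and 7 did not overlap. Of all probes 28.9% fell, 27.8% rose, 56.7% changed and 34.0% did not overlap.

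The median log2 difference of the member probes was -1.51 for the early step, beside 0.05 over all tested probes, and -0.10 for the late step, beside 0.00035. On arrays centred on their median in place of quantile normalization, rises made up 37.6% in place of 53.7% of all calls at the early step and 36.8% in place of 51.0% from BMMs to osteoclasts. In a bulk sample fewer cells of a type and less RNA per cell cannot be told apart.

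Ccnd1, which encodes cyclin D1, fell furthest among the members that stayed above background. Its brightest probe lay between 14.39 and 14.63 (log2 level) on the 6 BMM arrays, between 11.48 and 12.18 on the 6 pre-osteoclast arrays and between 9.80 and 10.23 on the 6 osteoclast arrays. The 3 stages did not overlap. The level was 6.41-fold lower in pre-osteoclasts than in BMMs (log2 difference -2.68, SE 0.0838, adjusted p = 7.62e-14) and 3.40-fold lower again in osteoclasts than in pre-osteoclasts (-1.77, SE 0.0838, adjusted p = 5.39e-11). The second probe followed with log2 differences of -2.71 and -1.69.

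The dimmest of the 3 Ccnd1 probes had log2 differences of -3.31 and -2.24, and its level was 46.8-fold lower in osteoclasts than in BMMs, against 21.8-fold and 21.04-fold for the other two. On BMM arrays the first probe ranked between 41 and 68 in brightness among the 25697 probes, the second between 65 and 90 and the third between 474 and 649, so the smaller falls belonged to the probes nearest to the top of the scale. Whether the scale limits them was not tested. All 3 probes were above background on every array, with a detection p of up to 0.0138 for the third. The early step made up 59.7 to 61.6% of the whole log2 change in the 3 probes.

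**Figure D1:**
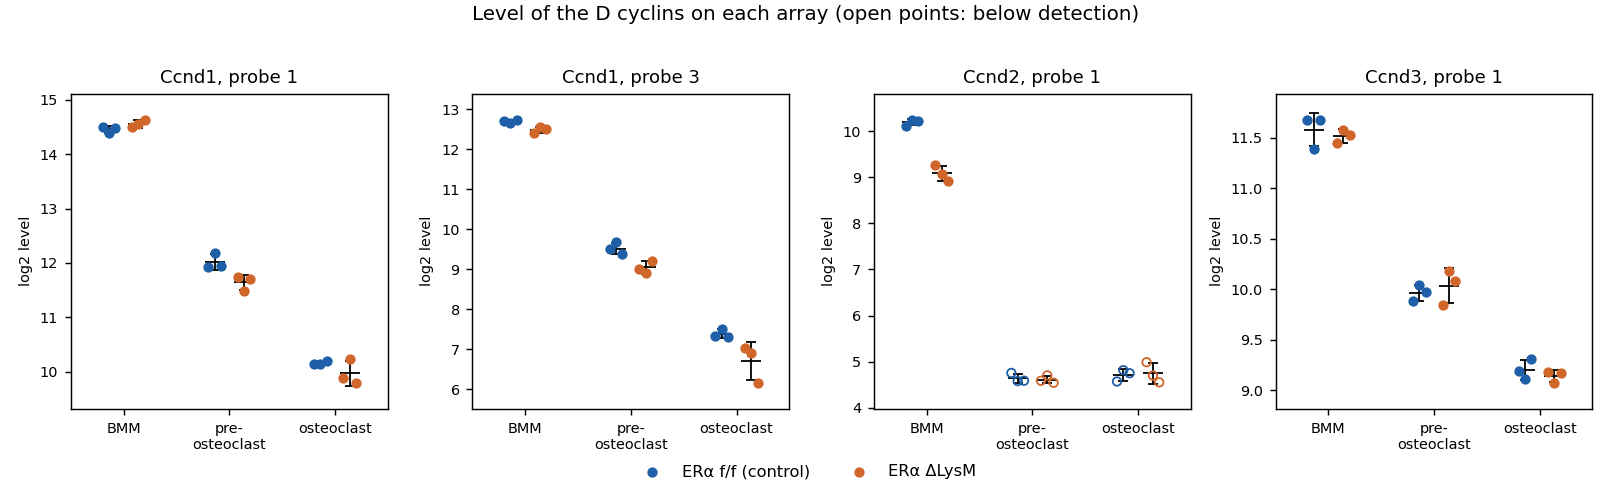
Log2 level (y axis) of Ccnd1 (probes 1 and 3), Ccnd2 and Ccnd3 (probe 1) on each of the 18 arrays, by stage (x axis), with ERα f/f in blue and ERα ΔLysM in orange. Points are arrays, open where the probe was below detection, and bars are the mean ± SD of 3 arrays; Ccnd2 is below detection on all 12 arrays with RANKL and is split by genotype in BMMs.

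Ccnd2, which encodes cyclin D2, was expressed in BMMs and fell below detection at the first step. Its 1 probe lay between 8.93 and 10.25 on the 6 BMM arrays and between 4.54 and 4.99 on the 12 arrays with RANKL. On none of these 12 did it exceed the negative control beads, with detection p values of 0.182 to 0.866. The fall can therefore only be bounded, from the lowest level at which probes were detected on each array. Pre-osteoclasts were at least 19.2-fold and osteoclasts at least 17.4-fold below BMMs (adjusted p = 6.03e-17 and 4.24e-17). In ERα f/f cells the bounds were 28.3-fold and 25.8-fold and in ERα ΔLysM cells 12.97-fold and 11.7-fold. No level can be given for the late step, where both stages were at background.

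Ccnd3, which encodes cyclin D3, fell by less. The main probe had a median level of 11.55 in BMMs (11.39 to 11.68), 10.01 in pre-osteoclasts (9.84 to 10.19) and 9.18 in osteoclasts (9.08 to 9.31). The stages did not overlap. The fall was 2.92-fold at the early step (log2 difference -1.55, SE 0.0788) and 1.78-fold at the late step (-0.83, adjusted p = 1.77e-07). A dimmer second probe had log2 differences of -1.44 and -0.54, and its pre-osteoclast and osteoclast arrays overlapped near background, with detection p values up to 0.0363. The early step held 65.1% and 72.8% of the whole log2 change in these probes.

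By each probe's own log2 difference over the whole course, Ccnd1 fell more than Ccnd3 (-2.38 and -1.98 for its 2 tested probes), and the bound on Ccnd2 exceeds the whole fall of Ccnd3 (5.20-fold and 3.95-fold), while its order against Ccnd1 cannot be given. Over the 18 arrays the genes whose profile was closest to that of the brightest Ccnd1 probe were Tmem43, Fcgr4 and Glrx, with Pearson r of 0.995, 0.9947 and 0.9945. For Ccnd2 they were Marchf1, Ccdc92 and Fcrls (0.9937, 0.9934 and 0.9934), where the 12 Ccnd2 levels below detection carry no order and the likeness rests on the contrast with BMMs. For Ccnd3 they were Rassf5, Apobec1 and Coro1a (0.9946, 0.9931 and 0.9929). Such values were common, since 352, 321 and 357 of 9087 genes had an r above 0.95 with the 3 cyclins, and the arrays share 3 stages that separate most genes.

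The RefSeq promoter table used here (GRCm38.p6) holds Ccnd3, which spans chr17:47505051-47599689, at 2 start sites. The 250 bases before the downstream start are shown as the promoter of a D cyclin whose main probe kept a measurable level throughout. Capitals mark the GC box GGGCGG or its reverse complement, which SP1-type factors bind.
Ccnd3, chr17:47593217-47593466, plus strand: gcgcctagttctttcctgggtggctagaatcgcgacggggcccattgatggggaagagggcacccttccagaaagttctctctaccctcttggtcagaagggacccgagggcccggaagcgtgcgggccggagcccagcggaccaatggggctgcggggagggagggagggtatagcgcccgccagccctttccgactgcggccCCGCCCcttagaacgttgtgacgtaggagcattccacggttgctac
The window before the upstream start held 2 GC boxes. At least 1 such box is found in 32.7% of the 32841 windows of this length. Neither window held the E2F sites TTTGGCG or TTTCGCG, the AP-1 site TGANTCA or the palindromic estrogen response element, searched on both strands, which occur in 1.26%, 0.703%, 6.75% and 0.0639% of all windows. Promoters of Ccnd1, Ccnd2 and Rb1 are not shown.

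Cdk6, the kinase partner of D cyclins with a probe, changed little. Its level ran from 6.83 to 7.13 on BMM arrays, from 6.09 to 6.97 on pre-osteoclast arrays and from 6.02 to 6.72 on osteoclast arrays. Osteoclasts were 1.39-fold below BMMs (log2 difference -0.48, SE 0.133, adjusted p = 0.00443), with no overlap of their arrays. Without the 7 dim arrays, an alternative chosen after seeing the data, this difference was -0.30 (adjusted p = 0.0632). Neither step alone passed the test, at -0.26 (95% interval -0.54 to 0.03) and -0.22 (-0.51 to 0.06).

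Rb1, which encodes the retinoblastoma protein, fell at the early step and then held its level. Its brighter probe lay around a median of 10.62 on BMM arrays (10.58 to 10.85), 9.49 after RANKL for 2 days (9.03 to 9.57) and 9.33 in osteoclasts (9.21 to 9.42). BMMs did not overlap the later stages, which overlapped each other. The early fall was 2.38-fold (log2 difference -1.25, SE 0.0831, adjusted p = 1.29e-09) and 2.08-fold in the dimmer probe. The late differences were -0.10 (95% interval -0.28 to 0.07) and -0.02 (-0.23 to 0.19).

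Cdkn1a, which encodes p21, an inhibitor induced by p53 and by growth arrest, fell together with the D cyclins at the early step. Its brightest probe had a median of 13.21 in BMMs (13.03 to 13.35), 11.73 in pre-osteoclasts (11.46 to 11.81) and 11.40 in osteoclasts (11.33 to 11.45). BMM arrays lay above all others in each of the 3 probes. The early fall was 2.86-fold, 3.20-fold and 3.05-fold in the 3 probes (adjusted p = 7.13e-12, 5.99e-11 and 3.46e-09). At the late step the probes parted. The brightest fell by a further 0.30 (SE 0.0677, adjusted p = 0.00119), whereas probes 2 and 3 differed by 0.12 (95% interval -0.07 to 0.30) and 0.09 (-0.16 to 0.33). The late fall of the brightest probe did not pass on median-centred arrays (-0.20, adjusted p = 0.455).

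Cdkn1a spans chr17:29090979-29100722 and has 2 start sites in the table, and the files do not say which transcript each probe reads. The 250 bases before each are shown because its probes agree on the early fall. Capitals mark the p53 decamer in the upstream window, and GC boxes and the TATA box TATAAN, read on the plus strand only, in the downstream window.
Cdkn1a, upstream start, chr17:29090729-29090978, plus strand: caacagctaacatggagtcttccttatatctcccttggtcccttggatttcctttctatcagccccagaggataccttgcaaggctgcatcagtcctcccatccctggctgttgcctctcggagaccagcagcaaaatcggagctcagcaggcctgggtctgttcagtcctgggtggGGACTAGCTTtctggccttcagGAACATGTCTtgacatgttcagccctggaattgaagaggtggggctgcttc
Cdkn1a, downstream start, chr17:29093519-29093768, plus strand: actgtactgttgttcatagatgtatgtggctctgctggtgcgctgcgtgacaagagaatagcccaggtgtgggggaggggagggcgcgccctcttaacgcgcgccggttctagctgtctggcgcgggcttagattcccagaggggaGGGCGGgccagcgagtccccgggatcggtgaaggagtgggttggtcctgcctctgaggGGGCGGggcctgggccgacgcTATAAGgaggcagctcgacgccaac
The upstream window held 2 p53 decamers (at least 1 is found in 7.13% of all windows), and the downstream window held 2 GC boxes and 1 TATA box (16% of all windows). A match is a description of these letters and not a measured site.

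Cdkn1b, which encodes p27, was near background and changed little at the RNA level. The tested probe lay between 5.99 and 6.68 on BMM arrays, 6.19 and 6.66 on pre-osteoclast arrays and 5.94 and 6.93 on osteoclast arrays, so all stages overlapped. Osteoclasts were 1.26-fold above BMMs (log2 difference 0.34, SE 0.141, adjusted p = 0.0443). This call was lost in 9 of the 18 fits that leave out 1 array (adjusted p up to 0.126) and under 8 of 11 other alternatives, and without the 7 dim arrays the difference was 0.03 (adjusted p = 0.855). The early difference was 0.15 (95% interval -0.15 to 0.45).

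Cdkn2c, which encodes p18, gave 2 different courses on its 2 probes. The brighter probe dipped: its median was 10.64 on BMM arrays (10.46 to 10.96), 9.67 on pre-osteoclast arrays (9.59 to 10.13) and 10.60 on osteoclast arrays (10.51 to 10.63). The fall of 1.90-fold (log2 difference -0.93, SE 0.0825, adjusted p = 5.11e-08) was followed by a rise of 1.80-fold (0.85, adjusted p = 2.32e-07), which left a difference between osteoclasts and BMMs of -0.08 (95% interval -0.25 to 0.10). The dimmer probe rose throughout: its median was 5.97 on BMM arrays (5.46 to 6.43), 6.69 on pre-osteoclast arrays (6.53 to 7.02) and 8.85 on osteoclast arrays (8.54 to 9.12), with no overlap between stages. It rose 1.73-fold (0.79, SE 0.152, adjusted p = 0.000286) and then 4.28-fold (2.10, SE 0.152, adjusted p = 7.03e-09). It was above background on every BMM array, with detection p values up to 0.0439. At the late step Cdkn2c was the only member gene with a probe that rose past the threshold, and both of its probes did.

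Cdkn2c spans chr4:109660876-109666756 on the minus strand and has 2 start sites in the table. The 250 bases before each are shown because the probes disagree, although the files do not tie a probe to a start. Capitals mark GC boxes before the upstream start and an E2F site TTTCGCG before the downstream start.
Cdkn2c, upstream start, chr4:109666757-109667006, minus strand: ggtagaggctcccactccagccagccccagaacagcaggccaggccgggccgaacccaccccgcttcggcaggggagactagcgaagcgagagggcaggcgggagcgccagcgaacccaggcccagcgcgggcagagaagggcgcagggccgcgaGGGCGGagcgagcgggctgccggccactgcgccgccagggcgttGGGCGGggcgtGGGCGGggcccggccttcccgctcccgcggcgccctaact
Cdkn2c, downstream start, chr4:109665373-109665622, minus strand: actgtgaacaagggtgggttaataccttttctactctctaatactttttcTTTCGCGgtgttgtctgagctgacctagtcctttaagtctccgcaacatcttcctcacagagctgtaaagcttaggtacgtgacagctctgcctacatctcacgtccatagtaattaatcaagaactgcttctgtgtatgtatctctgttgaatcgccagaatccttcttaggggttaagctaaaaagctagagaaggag
The upstream window held 3 GC boxes and the downstream window 1 such E2F site. Across the 9 windows of the member genes in the table this was the 1 match to either E2F site, and none held the estrogen response element.

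**Figure D2:**
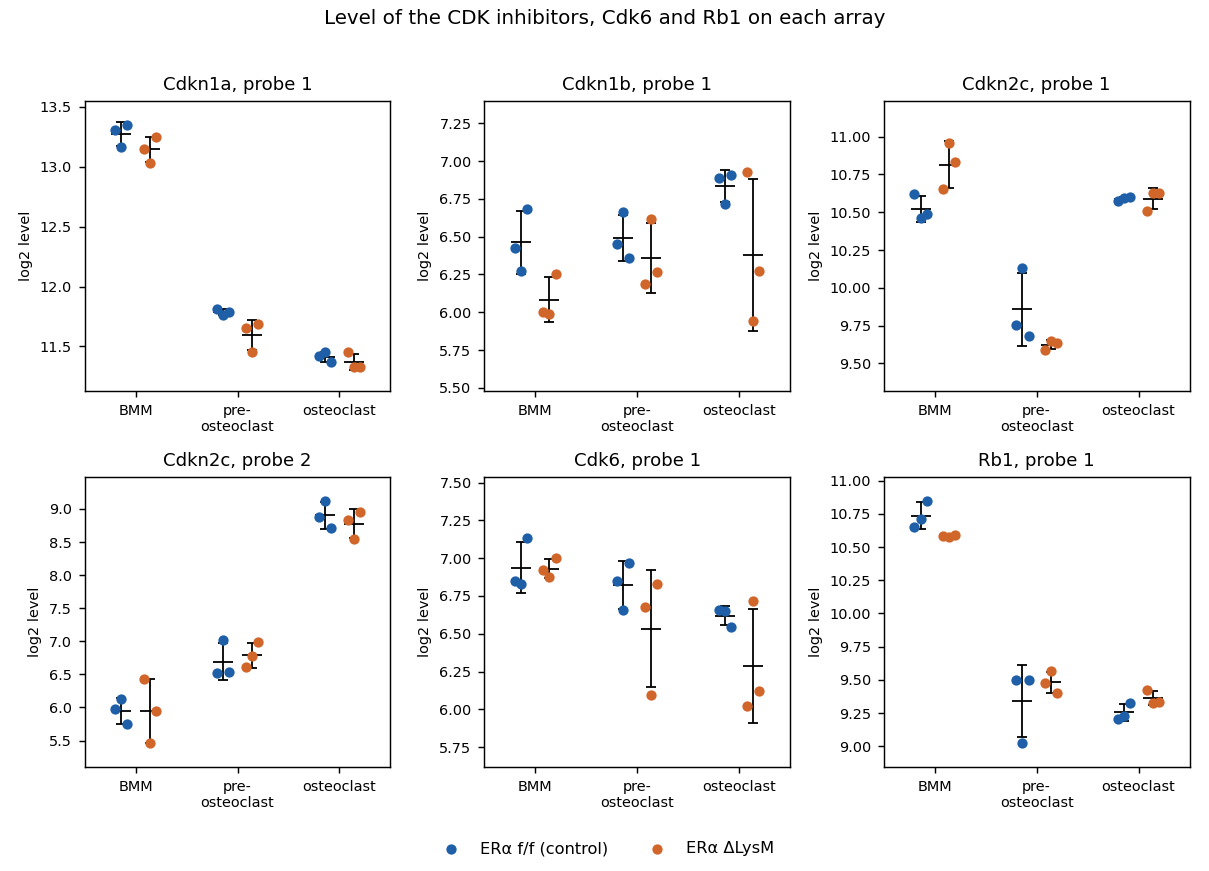
Log2 level (y axis) of Cdkn1a, Cdkn1b, Cdkn2c (both probes), Cdk6 and Rb1 on each of the 18 arrays, by stage (x axis), with ERα f/f in blue and ERα ΔLysM in orange. Points are arrays and bars the mean ± SD of 3 arrays; Cdkn2c dips on probe 1 and rises on probe 2, and Cdkn1b overlaps across stages.

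**Figure D3:**
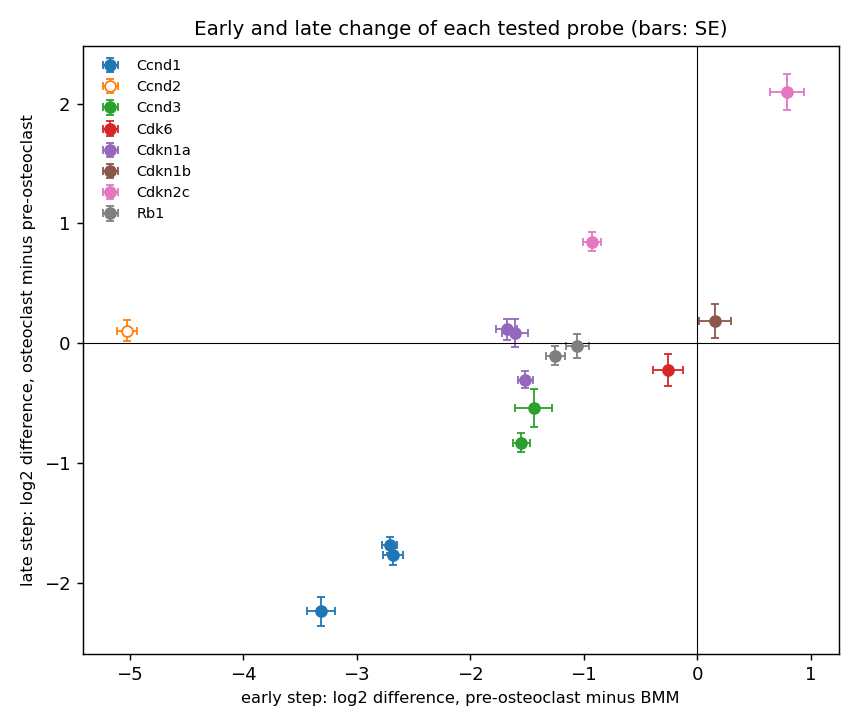
Early change (x axis, pre-osteoclast minus BMM) against late change (y axis, osteoclast minus pre-osteoclast) of each of the 15 tested probes, as log2 differences averaged over the genotypes. Bars are standard errors and the open point is Ccnd2, below detection after the early step; Ccnd1 and Ccnd3 lie below 0 on both axes, Cdkn1a and Rb1 near 0 on the late axis, and Cdkn2c above 0 on it.

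The other inhibitors did not move as a block. Of Cdkn1c, Cdkn2a, Cdkn2b and Cdkn2d, all tested, 1 rose and 2 fell at the early step, and 3 rose and 1 fell at the late step. Cdkn2b (p15) rose 5.84-fold at the early step (adjusted p = 2.79e-12) and was 9.04-fold above BMMs in osteoclasts. Cdkn1c (p57) rose 6.05-fold at the late step (adjusted p = 3.33e-11) and differed by -0.02 at the early one. Cdkn2d (p19) fell 3.89-fold and then a further 1.47-fold. Cdkn2a fell 1.49-fold early (adjusted p = 0.0277) and rose 2.05-fold late. In these gene counts each gene stands by its brightest probe, and 27% of 9088 tested genes fell and 30.8% rose at the early step, against 30.1% and 28.1% at the late one.

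Most of the listed E2F targets fell at both steps. Of 13 tested E2F target genes of S phase, 10 fell and 1 rose at the early step, with a median log2 difference of -0.41, and 13 fell at the late step, with a median of -2.13. The medians over all tested genes were 0.04 and 0.0011, and 27% and 30.1% of them fell. Mcm3, a subunit of the replicative helicase, fell 7.01-fold, to a level above background on 3 of 6 osteoclast arrays, and Rrm2, a subunit of ribonucleotide reductase, 5.91-fold at the late step. At the early step the largest falls in this list were those of Pcna, the clamp of DNA polymerase (1.97-fold), and Tk1, thymidine kinase (1.93-fold), and Cdt1, a licensing factor, rose 1.14-fold. All 5 genes of the cyclin E, cyclin A and CDK2 list fell at both steps (medians -0.65 and -1.08). Ccne2, a cyclin E, fell 2.21-fold and then 3.23-fold.

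Among the pocket proteins and E2F and DP factors 8 of 11 tested genes fell at the early step and 4 at the late one, with 1 rise at each. Over all tested genes 27% and 30.1% fell at these steps, and 30.8% and 28.1% rose. E2f2, an activator E2F, fell 5.23-fold and then 4.97-fold, and Rbl1 (p107), a relative of the retinoblastoma protein, fell 2.13-fold and then 3.95-fold. E2f3 rose 1.19-fold early (adjusted p = 0.0482) and E2f6 1.16-fold late. In the turnover list, Skp2, which marks p27 for degradation, fell 1.82-fold at the late step, and Cul4a, a ubiquitin ligase scaffold, rose at both (1.26-fold and 1.16-fold), while Ddb1, its adaptor, rose 1.34-fold early. The other 3 of the 6 tested genes passed at neither step. Of the kinase that activates CDKs only Mnat1 was tested, and it rose 1.17-fold early.

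Of 8 tested genes of p53 and its targets, 2 rose and 3 fell at the early step, where Cdkn1a fell. Trp53inp1 rose 3.64-fold and Phlda3 1.49-fold, and Gadd45a fell 2.36-fold. At the late step 5 rose and 2 fell, among them Sesn2 (1.62-fold up) and Mdm2 (1.57-fold down). Of 5 tested inputs to cyclin D and p27, 3 rose and 2 fell early, and 2 rose and 3 fell late. Beside the counts of both lists, 30.8% of all tested genes rose and 27% fell early, and 28.1% rose and 30.1% fell late. Fos rose 2.72-fold early and fell 1.90-fold late, Foxo1 rose 1.68-fold early, and Egr1 and Jun fell 2.63-fold and 2.12-fold before they rose 3.38-fold and 2.38-fold. Myc rose early by 0.56 on the log2 scale, fell 2.58-fold late and was above background on 3 of 6 osteoclast arrays.

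ERα ΔLysM cells were set against the ERα f/f controls at each stage. By genotype only ERα ΔLysM cells carry Cre, so loss of ERα and the Cre allele cannot be told apart here. Among the 15 member probes 1 passed the test in BMMs, 0 in pre-osteoclasts and 0 in osteoclasts, where 0.321%, 0.0746% and 0.172% of all tested probes did. At an unadjusted p under 0.05 the limma counts were 3, 4 and 3 of 15, beside 13.4%, 8.15% and 7.03% of all tested probes.

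The 1 call was Ccnd2 in BMMs. Its level was 10.12, 10.25 and 10.23 in ERα f/f BMMs and 9.27, 9.07 and 8.93 in ERα ΔLysM BMMs. All ERα ΔLysM arrays lay below all ERα f/f arrays. The means were 10.20 ± 0.07 and 9.09 ± 0.17 (SD, n = 3), a 2.17-fold lower level (log2 difference -1.12, 95% interval -1.38 to -0.85, limma adjusted p = 0.00178). Before normalization the scanner signals were 1471, 2082 and 1799 in ERα f/f and 620, 475 and 742 in ERα ΔLysM BMMs. The lowest normalized level was on the ERα ΔLysM array of replicate 3, whose median signal of 176.5 lay within the range of the ERα f/f BMM arrays (165 to 190.8), while those of replicates 1 and 2 were dim (129.7 and 133.5).

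Without the dim arrays, where this lone array was taken to vary like the other groups, the difference was -1.27 and did not pass (adjusted p = 0.307), and no probe of the array did. With the dim arrays as a term in the model it was -1.16 (adjusted p = 0.00881). In a fit to the 6 BMM arrays alone it did not pass either (adjusted p = 0.110), and again no probe passed. The summed level of 8 neutrophil markers was 14140 to 15650 on ERα f/f and 20980 to 23350 on ERα ΔLysM BMM arrays, with 1 of the 8 called. That of 5 macrophage markers was 30870 to 31150 against 27830 to 29150, with 0 called, and that of 11 osteoclast markers 1067 to 1189 against 1264 to 1352, with 1 called. The part of these cells in the Ccnd2 difference was not tested. Lymphocyte and erythroid markers were below detection on all of these arrays. Of the 11 osteoclast markers 5 were below detection on every ERα f/f and 7 on every ERα ΔLysM BMM array.

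In pre-osteoclasts and osteoclasts Ccnd2 was at background in both genotypes, so no genotype difference could be seen there. The term for a genotype difference that changes between stages is fixed by this floor and by the BMM difference, and tells nothing about the later stages. It passed for Ccnd2 between BMMs and pre-osteoclasts (1.09, limma adjusted p = 0.0370) and between BMMs and osteoclasts (1.151, adjusted p = 0.0242). It did so for no other member probe, beside 0.0522% and 0.0597% of all tested probes, nor for any between pre-osteoclasts and osteoclasts (0.00746%). With 1 array left out they were lost in 13 and 11 of 18 fits, with adjusted p values of 0.0184 to 0.161 and 0.0183 to 0.0973.

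The remaining member probes did not pass between genotypes. Over all 15 member probes, groups did not overlap for 7 in BMMs, Ccnd2 among them, 5 in pre-osteoclasts and 2 in osteoclasts. Of all tested probes 23.6%, 10.2% and 14.2% did not overlap. In pre-osteoclasts all 3 Ccnd1 probes were lower on each ERα ΔLysM array than on any ERα f/f array. The brightest probe read 11.92, 12.18 and 11.95 in ERα f/f and 11.74, 11.48 and 11.71 in ERα ΔLysM pre-osteoclasts. Its difference was -0.38 (95% interval -0.63 to -0.12, limma adjusted p = 0.395), and those of the other two were -0.20 and -0.47. In BMMs the differences of the 3 probes were 0.11, 0.06 and -0.22. In osteoclasts the third Ccnd1 probe differed by -0.69 (-1.06 to -0.33, adjusted p = 0.220) and the brightest by -0.19 (-0.44 to 0.06).

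For Ccnd3 the 95% interval of the main probe ran from -0.30 to 0.17 among BMMs. In pre-osteoclasts it ran from -0.17 to 0.31, and at the last stage from -0.30 to 0.18. For Cdkn1a the second probe differed by 0.28 in BMMs (0.02 to 0.55) and by -0.35 in pre-osteoclasts (-0.61 to -0.08), with limma adjusted p values of 0.337 and 0.490. The probes did not agree in BMMs. There the brightest had a lower mean in ERα ΔLysM than in ERα f/f cells (13.144 against 13.273) and the third a higher one (10.872 against 10.555). In pre-osteoclasts both had a lower mean in ERα ΔLysM cells (11.599 against 11.789, and 8.9683 against 9.2432). The brighter Cdkn2c probe differed by 0.29 in BMMs (0.04 to 0.54) and -0.23 in pre-osteoclasts (-0.48 to 0.02), and the tested Cdkn1b probe by -0.45 in osteoclasts (-0.88 to -0.03). None of the other G1 lists had a gene past the threshold between genotypes at any stage.

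**Figure D4:**
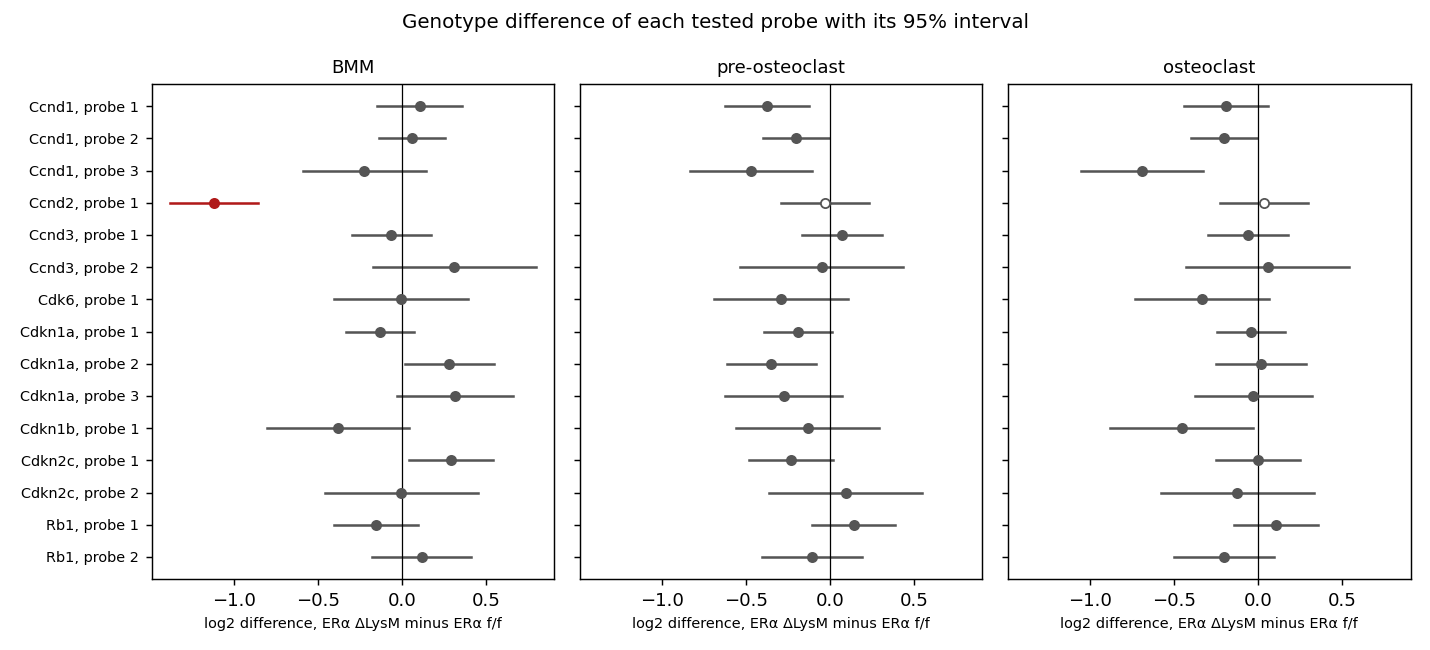
Log2 difference between ERα ΔLysM and ERα f/f (x axis) for each of the 15 tested probes (y axis), in BMMs, pre-osteoclasts and osteoclasts. Points are estimates, lines 95% intervals, red marks the probe past the adjusted threshold and open points a probe below detection in both groups; Ccnd2 in BMMs lies at -1.12 and apart from the rest.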

How the data were processed

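The authors deposited mean bead intensity values per probe with a detection p-value, without normalization, from Illumina MouseRef-8 arrays (the study names version 1, while the annotation used is that of version 2), and log2 values normalized with lumi. Intensities of 25697 probes were background corrected from the detection p-values, quantile normalized and log2 transformed with neqc (offset 16) in limma 3.58.1 (R 4.3.3). The largest deviation from the log2 values the authors deposited was 0.0282. A cell-means model of the 6 groups was fitted to the 13409 tested probes (12 residual and 3.69 prior degrees of freedom). For a probe below detection on every array of a group, "at least N-fold" sets the brighter group's mean against the higher of the probe's own level and the lowest detected level of each array. Members and lists were chosen with earlier results of these data known. Named pathway genes were at most 2 per list, step and direction, by size among those that passed. The fit was tested on simulated data with known changes. Promoters are from RefSeq (GRCm38.p6), and figures were drawn with matplotlib 3.10.9. The 3 arrays per group limit the precision. Alternatives were other normalizations, filters, priors, weights, samples and a replicate block.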

Additional observations from a re-analysis of the deposited data

Results flagged for a closer look

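The interaction term of the model for the difference between ERα ΔLysM and ERα f/f cells passed the test for Ccnd2, but it sets BMMs against stages at background and does not show that the genotypes differ less there. It was 1.09 log2 units higher in pre-osteoclasts than in BMMs (limma adjusted p = 0.0370) and 1.151 units higher in osteoclasts than in BMMs (adjusted p = 0.0242). The genotype differences behind these terms were -1.12 in BMMs, -0.03 in pre-osteoclasts and 0.04 in osteoclasts, and those of pre-osteoclasts and osteoclasts rest on levels below detection in both genotypes.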

How the results depend on the processing

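The total of member probes called between stages (13, 14 and 8, directions together) stayed within 1.5 times its value under all 29 alternatives, of which 18 leave out 1 array and 2 (the dim arrays left out or as a term) were chosen after seeing the data. Of 38 called values of single probes 32 kept their call throughout. The call of Ccnd2 between genotypes in BMMs held in 27 of 29 (adjusted p 0.000734 to 0.0231 with 1 array left out), and the count of 1 became 0 with only the arrays compared and without the dim arrays. On median-centred arrays the count was 2, with the third Ccnd1 probe at -0.86 (adjusted p = 0.0490), where the median of all probes was -0.43 and Ccnd2, at -1.63, lay 1.21 below that median. The counts of 1 for the terms between stages became 0 on median-centred arrays, with a trended robust prior, with the replicate block and without the dim arrays, and for pre-osteoclasts also with the dim arrays as a block, and they ran from 0 to 1 with 1 array left out (lost in 13 and 11 of 18 fits). Same-numbered arrays of the genotypes correlated between -0.107 and 0.355 in their deviations. Those of different stages within a genotype correlated between -0.234 and 0.107. No values for differently numbered arrays were set beside these, so they cannot decide whether the numbers pair arrays. With the replicate block the adjusted p of the Ccnd2 terms between stages was 0.0566 and 0.0564, while Ccnd2 in BMMs stayed at 0.00534. Cdkn1b between osteoclasts and BMMs turned to -0.017 on median-centred arrays, and wherever its call was lost the 2 rises from BMMs to osteoclasts became 1. Over all probes the calls between genotypes in BMMs numbered 43, and 786 on median-centred arrays, 296 with array weights, 189 without background correction, 133 with a trended robust prior, 27 without a filter, 23 with the replicate block, 8 with the dim arrays as a block, 4 to 38 with 1 array left out and 0 with only the arrays compared or without the dim arrays. Those in pre-osteoclasts (10) ran from 0 to 19 and those in osteoclasts (23) from 0 to 34. The cause of these changes was not tested. Signal over background limits Ccnd2 after RANKL and the dim probes of Ccnd3 and Cdkn1b.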
